A study of Mus musculus with 24 samples.

Results

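H3K27ac sites that were called in every mouse embryonic fibroblast (MEF) list and in no list from tumour or wound fibroblasts are described here. The H3K27ac lists of 7 ChIP-seq libraries give the summit of each peak, which is its highest point, with a −log10 p-value. Each summit was widened by 250 bp on each side, and windows that shared a base were merged into 100984 sites. The sites were chosen by their calls alone: a summit from MEF WT, from MEF KI and from MEF SG, and none from the 4 lists of MMTV-CAF and wound fibroblasts. This rule kept 396 sites, which is 0.392% of all merged sites. The presence of H3K27ac in MEF and its absence elsewhere were therefore set by the choice of sites and are not results.

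The 3 MEF lists came from C57BL/6 wild-type cells (WT), from cells labelled KI and from cells in which Prrx1 had been deleted with a guide RNA (SG). KI was taken to be the 129S-Prrx1tm1Jfm/Mmmh mutant, a knock-in that puts lacZ into the Prrx1 homeodomain and that had been backcrossed to C57BL/6. The labels write only KI, and its meaning comes from the study's description of its mice. Embryos were taken between embryonic days 10 and 13. MMTV-CAF are cancer-associated fibroblasts from mammary tumours of FVB/NJ mice that carry the polyoma middle T transgene under the MMTV promoter, and wound fibroblasts came from dorsal wounds of C57BL/6 mice on day 10. Both of these types were profiled as WT, which carried a non-targeting guide, and as SG. All cells, controls included, were made immortal with E6 and E7 of human papillomavirus. Every group has 1 library, so no test between conditions was possible. Cell type, tissue and stage cannot be told apart, and for MMTV-CAF mouse strain cannot either. Intervals given with shares are Wilson 95% intervals, and those of differences are Newcombe intervals. They cover counting error over sites only and not the spread between cultures. A weaker mark in all cells and a mark in fewer cells cannot be told apart either.

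Acetylation of lysine 27 of histone H3 marks active promoters and active enhancers, and enhancers differ more between cell types than promoters do. Trimethylation of lysine 4 (H3K4me3) marks promoters that are active or poised. Prrx1 is a homeodomain protein of the limb and craniofacial mesenchyme that binds DNA at TAATTA, and Prrx2 is its close relative. In embryonic mesenchyme, enhancers of patterning factors keep a record of the body position from which a fibroblast came.

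Among the 396 sites, 9 had a Prrx1 summit of MEF within 500 bp and 7 lay in H3K4me3 regions of all 3 MEF lists and of no other list. The following stretches of 151 bases come from these sites and are shown because a readout that the rule did not use was also found there in MEF. They were read from the plus strand of mm9. In the first set, which holds all 9 Prrx1-bound members, centred on the Prrx1 summit and named by the nearest protein-coding gene, capitals mark TAATTA and TGANTCA, the motif of AP-1 factors. The last 3 have neither.

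Pkhd1, chr1:19963627-19963777: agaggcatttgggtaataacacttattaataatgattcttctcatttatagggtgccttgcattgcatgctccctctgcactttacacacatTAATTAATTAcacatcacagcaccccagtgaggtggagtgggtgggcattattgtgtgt
Pvrl3, chr16:46702654-46702804: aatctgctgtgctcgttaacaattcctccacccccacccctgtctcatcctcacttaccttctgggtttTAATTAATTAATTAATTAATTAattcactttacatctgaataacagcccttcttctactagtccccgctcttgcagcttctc
Pappa, chr4:64465488-64465638: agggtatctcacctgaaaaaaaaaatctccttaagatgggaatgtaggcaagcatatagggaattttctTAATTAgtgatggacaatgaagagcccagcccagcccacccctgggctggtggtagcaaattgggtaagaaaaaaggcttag
Gm6420, chr1:23197261-23197411: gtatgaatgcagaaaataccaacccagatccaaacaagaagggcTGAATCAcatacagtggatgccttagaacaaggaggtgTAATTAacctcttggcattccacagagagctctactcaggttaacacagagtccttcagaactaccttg
Jag1, chr2:137423982-137424132: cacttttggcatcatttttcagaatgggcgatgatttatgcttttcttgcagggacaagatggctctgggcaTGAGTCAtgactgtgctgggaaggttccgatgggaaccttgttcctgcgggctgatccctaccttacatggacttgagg
Crygf, chr1:65979623-65979773: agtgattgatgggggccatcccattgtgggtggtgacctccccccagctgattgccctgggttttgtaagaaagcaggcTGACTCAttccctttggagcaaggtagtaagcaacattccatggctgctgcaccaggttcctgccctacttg
Flrt2, chr12:96730296-96730446: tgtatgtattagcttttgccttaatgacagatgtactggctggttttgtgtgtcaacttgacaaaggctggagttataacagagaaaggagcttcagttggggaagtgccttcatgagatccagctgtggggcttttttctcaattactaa
Lama4, chr10:37841817-37841967: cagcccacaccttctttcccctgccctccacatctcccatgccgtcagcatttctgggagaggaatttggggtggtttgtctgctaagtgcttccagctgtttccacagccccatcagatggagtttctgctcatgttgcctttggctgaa
Frmd6, chr12:71809359-71809509: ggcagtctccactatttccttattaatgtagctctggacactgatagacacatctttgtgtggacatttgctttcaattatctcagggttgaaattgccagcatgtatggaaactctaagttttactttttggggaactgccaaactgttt

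In the second set, centred on the MEF WT H3K27ac summit of sites with H3K4me3 in MEF lists only, capitals mark CpG. Of these 7 sites 2 are shown, chosen after their values were seen.

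Foxc1, chr13:31912603-31912753: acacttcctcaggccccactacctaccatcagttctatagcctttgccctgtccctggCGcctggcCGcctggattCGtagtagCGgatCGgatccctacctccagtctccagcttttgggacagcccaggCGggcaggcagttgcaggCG
Gas2, chr7:59135623-59135773: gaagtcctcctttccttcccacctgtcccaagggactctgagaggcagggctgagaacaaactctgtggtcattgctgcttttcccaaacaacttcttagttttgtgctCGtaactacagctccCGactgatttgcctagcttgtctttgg

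The name confined held for summits within 500 bp, but not for wider surroundings. The nearest MMTV-CAF or wound summit lay a median of 1094 bp from the members, with a range from 502 to 933421 bp. In 64 members (16.2%) this distance was at most 600 bp, in 181 (45.7%) at most 1000 bp and in 258 (65.2%, interval 60.3 to 69.7) at most 5000 bp. The remaining 138 members (34.8%) had no summit of another type within 5 kb and are called isolated below, while the 258 are called near. This split was chosen after the distances had been seen. Only 32 members (8.08%) lay over 100 kb from such a summit. Near members had their closest other summit in MMTV-CAF WT in 66 cases, in MMTV-CAF SG in 62, in wound WT in 60 and in wound SG in 70, so no single list supplied them.

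**Figure D1:**
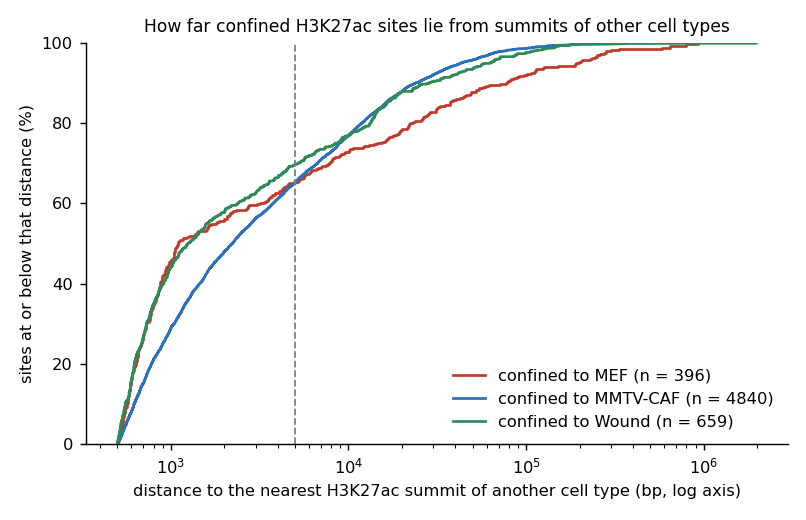
Cumulative share of sites (%) against the distance in bp, on a log axis, from a site's summits to the nearest H3K27ac summit of another cell type, for sites confined to MEF, MMTV-CAF or wound fibroblasts; the dashed line marks 5000 bp. The curve of the 396 MEF sites passes 45.7% at 1000 bp and 65.2% at 5000 bp.

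Sites confined to the other types lay in similar surroundings at 5 kb. Of 4840 sites called in both MMTV-CAF lists and in no other, 65.2% had a summit of another type within 5000 bp, and of 659 sites confined to both wound lists 69.7% had one. At 1000 bp the MMTV-CAF sites were lower, at 28.8% (27.6 to 30.1). The wound sites were at 44.0% (40.3 to 47.8), near the 45.7% of the members. Just outside the rule were 881 sites of all 3 MEF lists with a summit from exactly 1 of the 4 other lists. Their median −log10 p in that list was 14.2 in MMTV-CAF WT (n = 231), 18.9 in MMTV-CAF SG (n = 177), 15.3 in wound WT (n = 229) and 14.1 in wound SG (n = 244), beside medians of 16.3, 17.8, 15.2 and 16.3 over the whole lists. These single calls were thus about as strong as an ordinary summit of their list. Within members, the summits of the MEF lists lay a median of 46 bp apart between WT and KI and also between WT and SG. Over all 16402 sites with summits of the 3 MEF lists these medians were 33 and 31 bp. Sites were built from windows that share a base, which favours short distances.

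Members as a whole were of ordinary or low strength. The −log10 p ranged from 5.06 to 119 with a median of 16.97 in MEF WT, from 5.08 to 50.3 with a median of 11.1 in MEF KI, and from 5.27 to 130.3 with a median of 16.7 in MEF SG. The lists themselves had medians of 18.5, 11.9 and 21.2. Isolated members were weaker than near members, with medians of 14.9 against 18.5 in WT, 10.5 against 11.5 in KI and 14.1 against 18.6 in SG. The 49 members at promoters were stronger in WT and SG, with medians of 36.2 in WT, 11.8 in KI and 57.9 in SG. Sites of all 7 lists had medians of 43.6, 13.8 and 64.7 in the same lists. The KI list was the shortest of the 7, with 29325 summits, and MEF WT and MEF SG held 44918 and 43019. These values chose the members and are given without a test. Depth is not given with the lists, and its part in these values was not tested.

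**Figure D2:**
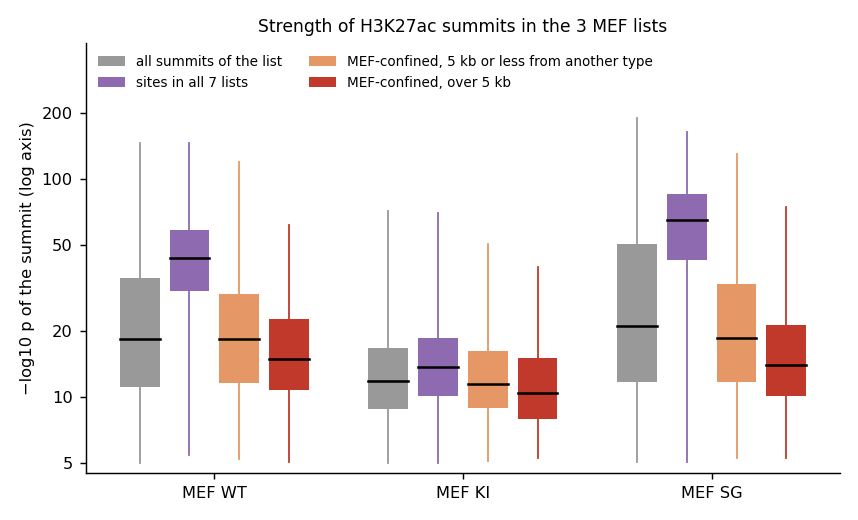
H3K27ac −log10 p (log axis) in the 3 MEF lists for all summits, sites of all 7 lists, near members and isolated members; boxes span the quartiles, black lines are medians and thin lines reach the lowest and highest value. Isolated members have the lowest medians in each list, 14.9, 10.5 and 14.1.

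Members were mostly distal. Within 1 kb of a protein-coding transcription start site (TSS) lay 49 members, or 12.4% (9.49 to 16.0), where 18.6% of all merged sites did. The difference from all other merged sites was −6.30 points (−9.19 to −2.68). Sites of all 7 lists were at promoters in 64.1% of cases, sites confined to MMTV-CAF in 7.95% and sites confined to wound fibroblasts in 14.3%. The share was 15.5% in near members and 6.52% (3.47 to 11.9) in isolated members, a difference of −8.98 points (−14.8 to −2.31) for isolated against near. The split was made on other-type H3K27ac, and 64.1% of sites in all 7 lists were promoter sites, so it favours this difference, which is a description. Of all members, 97 (24.5%) lay over 100 kb from any TSS, against 13.2% of all merged sites. It was 36.2% in isolated members. The promoter share moved with the width of the window, to 22.8% with windows of 250 bp in all and to 5.05% when widened by 500 bp.

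Among the 10 strongest members, ranked by their lowest place in any MEF list, 7 were promoters, all with H3K4me3 in all 7 lists. The other 3 were distal, near Bnc2, Myo1g and 2610203C20Rik. At Rnd3, whose protein opposes actomyosin contraction, the −log10 p was 119 in WT MEF, 25.8 in KI and 103 in SG, and the nearest summit of another type was 580 bp away. At Vegfa, the gene of the main angiogenic growth factor, the values were 86.1, 18.2 and 113.6 with another summit at 770 bp. At Ankrd1, a muscle ankyrin repeat protein and known target of YAP, they were 60.5, 21.2 and 96.7 with another summit at 1048 bp. The promoter sites of Hnrnpl, Mapk6, Ncor1, Lnpep, Inhba and Wnk1 had other summits between 507 and 895 bp away. Of the 49 promoter members, 42 lay in H3K4me3 regions of all 3 MEF lists, 34 lay in H3K4me3 of all 7 lists and 5 lay in none.

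Only 9 of the promoter members were isolated. At Nkx2-5, a homeobox gene of the heart field, the −log10 p was 21.0 in WT MEF, 8.14 in KI and 38.6 in SG, and the nearest summit of another type was 19963 bp away. This site lay in H3K4me3 regions of all 3 MEF lists and of wound WT. At Gas2, which encodes a protein that binds actin and microtubules, 2 neighbouring sites lay 124 and 74 bp from annotated starts, with values of 38.2, 9.34 and 64.7 and of 20.7, 19.6 and 13.5. The gene starts at chr7:59117385 (mm9, plus strand), and the second site runs from 59135448 to 59136102, at a start inside the gene. The other isolated promoter members belonged to Armcx4, Lpar4, Tes3-ps, Styk1, Gm7173 and Ddx3y. Ddx3y lies on chromosome Y, where both MMTV-CAF lists and the wound WT list held 0 H3K27ac summits while each MEF list and wound SG held 3. Both MMTV-CAF lists also held 0 H3K4me3 regions there, but wound WT held 4, and this site lay in a region of wound WT. The sex of the cells was not tested.

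H3K4me3 was not used to choose the members. It covered 20.7% of them in MEF WT (17.01 to 24.97), where it covered 27% of all merged sites, 17.4% in KI and 18.7% in SG. In the other cell types it covered 24.7% of members in MMTV-CAF WT, 25.8% in MMTV-CAF SG, 16.7% in wound WT and 17.2% in wound SG. At least 1 of these 4 lists had H3K4me3 at 31.3% of members (26.9 to 36.0), where 53.1% of all merged sites had it. That share was 43.0% in near members and 9.42% (5.59 to 15.5) in isolated members, a difference of −33.6 points (−40.8 to −25.2) for isolated against near, which the definition of the split favours. Sites confined to MMTV-CAF and to wound fibroblasts had it in 52.7% and 51.9% of cases, but their own lists are among the 4.

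Isolated members were defined by the absence of MMTV-CAF and wound H3K27ac within 5 kb, so low H3K4me3 in those types follows in part from their definition, and their shares are given as a description. It covered 12.3% of them in MEF WT (7.84 to 18.8), 9.42% in KI and 11.6% in SG, against 4.35% in MMTV-CAF WT, 2.90% in MMTV-CAF SG (1.13 to 7.22), 5.07% in wound WT and 4.35% in wound SG. Over all merged sites the order was different, with 43.7% and 44.5% in the MMTV-CAF lists, the largest of the H3K4me3 lists. In 116 of the 138 isolated members (84.1%) no list had H3K4me3. Among the 347 distal members, 252 lay in no H3K4me3 region and 52 lay only in regions of other cell types.

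**Figure D3:**
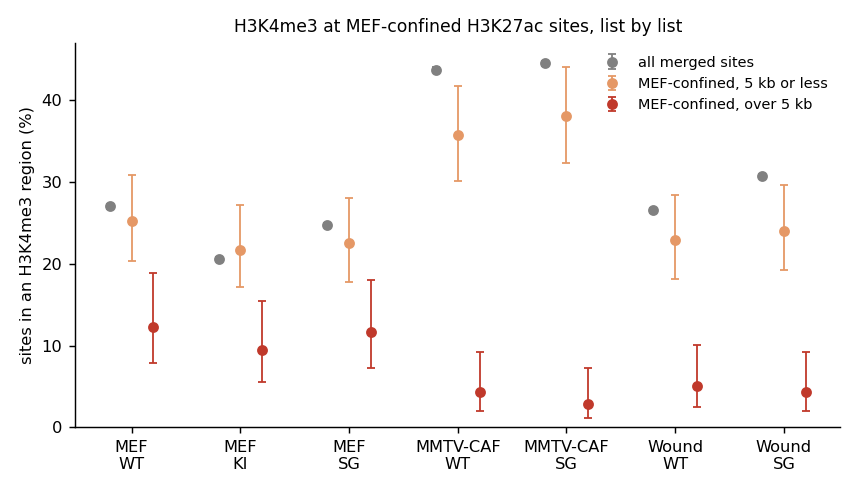
Share of sites (%) in an H3K4me3 region of each of the 7 lists, for all merged sites, near members and isolated members, with Wilson 95% intervals. Isolated members lie at 9.42% to 12.3% in the MEF lists and at 2.90% to 5.07% in the others.

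H3K4me3 in all 3 MEF lists and in no other list was rare, at 18 of all merged sites (0.0178%). Of these 18, 7 (38.9%) were members, which is 1.77% of the 396 (0.859 to 3.603). Among sites that likewise lacked other-type summits but missed a MEF list, it was found at 1 of 3994 in the WT list alone, 0 of 2631 in KI alone and 5 of 3730 in SG alone. For pairs of lists it was found at 1 of 415 in WT and KI (0.241%, interval 0.0425 to 1.35), 2 of 1577 in WT and SG (0.127%, 0.0348 to 0.461) and 1 of 271 in KI and SG (0.369%, 0.0652 to 2.06). The difference from the members was −1.53 points (−3.37 to −0.0912) for WT and KI and −1.64 points (−3.48 to −0.672) for WT and SG. For KI and SG only the single interval is given, and it overlaps that of the members. Both marks came from the same MEF groups, so they are not independent samples of MEF. The site 14181 bp from the TSS of Foxc1, a forkhead gene of head and somite mesenchyme, had H3K27ac −log10 p of 21.8 in WT MEF, 21.9 in KI and 42.1 in SG. Its H3K4me3 regions spanned 679, 1615 and 439 bp, with folds over input of 3.05, 2.96 and 3.64, and the 151 bases shown above hold 7 CpG. The second Gas2 site had 2.90, 3.06 and 3.41. Wrn, 3110039M20Rik and Ctnnd2 were the nearest genes of 3 further sites. These regions were weak: apart from 17.3 in MEF WT at the Ctnnd2 site, their −log10 p ran from 3.16 to 8.998, where the medians of the lists were 28.6, 9.93 and 23.3.

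Prrx1 summits were few at the members. A MEF Prrx1 summit lay within 500 bp of 9 of them, or 2.27% (1.20 to 4.26), beside 1.13% of all merged sites. The difference from all other merged sites was 1.15 points (0.0737 to 3.14). The share was 0.640% in sites confined to MMTV-CAF, 0.607% in those confined to wound fibroblasts and 1.48% in sites of all 7 lists. Sites confined to another type lack MEF H3K27ac by definition, which favours a low share. Prrx1 summits of their own type lay at 5.89% of sites confined to MMTV-CAF and 3.03% of those confined to wound fibroblasts, from lists of 8000 and 5698 summits. For MEF Prrx1, near and isolated members did not differ visibly, at 2.33% and 2.17%, with an interval of the difference from −3.17 to 4.06 points. The 9 members were 0.295% of the 3048 MEF Prrx1 summits. When every H3K27ac list was cut to the length of the shortest, the share was 1.08% of 463 sites.

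Because members carry H3K27ac in both MEF lists without intact Prrx1, they were set beside sites found in MEF WT alone. Of those 3994 sites 2.68% (2.22 to 3.23) had a MEF Prrx1 summit, which is 0.41 points above the members (−1.64 to 1.61). The share was 2.17% in the 415 sites of WT and KI, 1.71% in the 1577 sites of WT and SG and 0.369% in the 271 sites of KI and SG, where only 1 site had a summit. This interval includes 0. With every H3K27ac list cut to the length of the shortest, the difference was 2.07 points (0.508 to 3.09), an interval above 0, and with Prrx1 within 250 bp it was −0.136 (−1.82 to 0.679), so its size and sign depended on these definitions.

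All 9 Prrx1-bound members were intergenic. Of these, 7 lay over 100 kb from the nearest TSS, beside 24.5% of all members and 13.2% of all merged sites. The intergenic share of other sites is not given here, so this is a description of 9 sites only. The Prrx1 summits lay between 33 and 442 bp from the MEF WT H3K27ac summit, and their −log10 p ranged from 6.71 to 14.3. The strongest was near Pkhd1, at rank 558 of 3048, where H3K27ac had −log10 p of 47.1 in WT MEF, 9.25 in KI and 11.0 in SG. Near Pappa, which encodes a protease of IGF-binding proteins, H3K27ac was weak throughout, at 9.33, 5.95 and 7.70, and the Prrx1 value was 8.93. Near Pvrl3, which encodes an adhesion protein, H3K27ac was 9.33, 11.3 and 15.2 and Prrx1 13.0, and the nearest summit of another type was 205167 bp away. The site 481881 bp from Jag1, a Notch ligand, had a MEF Prrx1 value of 6.81 and a wound Prrx1 summit with 53.2, although neither wound list had H3K27ac there.

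TAATTA was present within 100 bp of the Prrx1 summit in 4 of the 9 members, those near Pkhd1, Pvrl3, Pappa and Gm6420 whose sequences are given above. Over the whole MEF Prrx1 list 69.1% of summits had it, against 35.5% in MMTV-CAF and 41.9% in wound fibroblasts. At Pvrl3 the 5 copies overlapped in 1 run. The bound members held lower places in the lists without intact Prrx1: their median percentile in the list was 50.1 in WT MEF, 28.8 in KI and 27.2 in SG. The other 387 members had 46.2, 44.9 and 41.4. The place was lower than in WT in both KI and SG for 6 of the 9 bound members and for 134 of the 387 others. With 9 sites and 1 library per genotype this is a description only.

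Prrx1 summits of the other cell types were found at members too. A MMTV-CAF Prrx1 summit lay within 500 bp of 18 members (4.55%, interval 2.89 to 7.07), where 6.19% of all merged sites had one, and a wound summit at 11 (2.78%, 1.56 to 4.90), where 3.98% had one. With either type it was 26 members (6.57%, 4.52 to 9.45), of which 24 were near and 2 isolated. Among isolated members 0 of 138 had a MMTV-CAF Prrx1 summit, with a Wilson interval up to 2.71%. Isolated members lack H3K27ac of these cells nearby by definition, which favours a low share, so this is a description. A MEF and a MMTV-CAF summit were both present at 3 members, near Lama4, Flrt2 and Frmd6, and a MEF and a wound summit at 1, the site of Jag1. No member had Prrx1 of all 3 types. The promoter sites of Rnd3 and Scaf8 had summits of both MMTV-CAF and wound fibroblasts and none of MEF. The site 4182 bp from Dlx2, a homeobox gene of the pharyngeal arches, had a wound Prrx1 summit with a −log10 p of 3.66, below the 5 that the stated calling threshold gives, as 22.0% of that list's summits were.

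**Figure D4:**
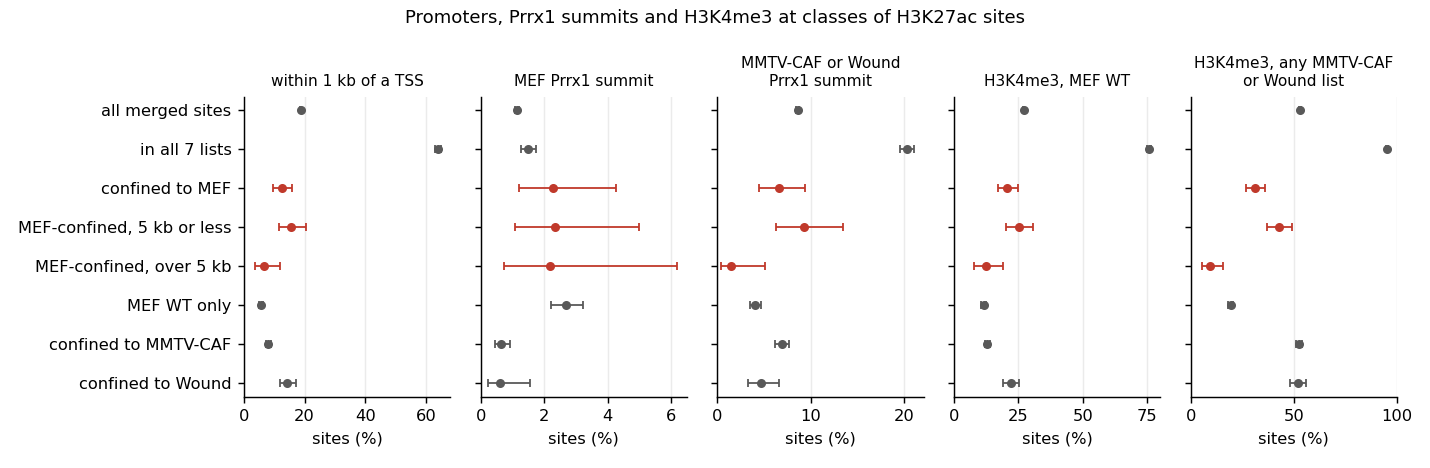
Share of sites (%) within 1 kb of a TSS, with a MEF Prrx1 summit, with a MMTV-CAF or wound Prrx1 summit, in H3K4me3 of MEF WT and in H3K4me3 of any MMTV-CAF or wound list, by class of H3K27ac site, with Wilson 95% intervals. Members (red) lie at 12.4%, 2.27%, 6.57%, 20.7% and 31.3%.

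The members had 330 protein-coding genes as nearest, which is 1.49% of the 22219 annotated. Nearness is a distance and does not say which gene a site serves. Of these genes 284 had 1 member, 32 had 2, 10 had 3, 2 had 4 and 2 had 5. Members lay apart, with 327 single sites, 33 pairs and 1 group of 3 when neighbours were joined over the stitching distance used for super-enhancers. H3K4me3 covered the TSS of 57.9% of the nearest genes in all 3 MEF lists, against 39.0% of all genes, and of 66.1% in all 4 other lists, against 48.6%. For 114 genes nearest to isolated members these shares were 49.1% and 46.5%. H3K4me3 was counted for a gene when it covered any of its protein-coding TSS. No nearest gene had it in all 3 MEF lists and in none of the others, a pattern found for 3 of all genes. The second Gas2 site had H3K4me3 in MEF alone, but Gas2 as a gene did not by this count.

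Patterning transcription factors, which set position and identity in the embryo, were the list with the most members: 7 of 97 genes (7.22%, interval 3.54 to 14.2, beside 1.49% of all genes) had 11 members, 6 of them isolated. Members made up 0.833% of the 1320 merged sites nearest these genes, beside 0.392% overall. Genes with many sites have more chances of a member, and over the lists with a member this share of sites ran from 0.181% for Wnt genes to 1.15% for imprinted genes, so patterning factors did not stand alone. Eya1, a coactivator of homeobox proteins in organ primordia, and Foxc1 had 2 each, and Dlx2, Nkx2-5 and Prrx2 1 each. The Eya1 members had −log10 p of 48.0 in WT MEF, 11.8 in KI and 29.5 in SG in an intron, and of 17.7, 22.6 and 12.7 at 271846 bp, where no other type had a summit within 5 kb. Over Eya1 as nearest gene lay 22 sites of MEF WT, 11 of KI and 14 of SG, but 2 and 0 of the MMTV-CAF lists and 1 and 5 of the wound lists. The same lists chose the members, so low counts in the other types follow in part from the choice and are no result. At Prrx2 the member, 3674 bp from the TSS, had 42.0, 17.3 and 70.4, with another type's summit 854 bp away. Hox genes had 0 members among 39 genes and 200 sites, cartilage and bone genes 0 among 38 genes and 372 sites, and skeletal muscle genes 0 among 20 genes and 49 sites.

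Matrix genes had 7 members at 5 of 64 genes (7.81%, beside 1.49% of all genes), which is 0.547% of their 1280 sites, beside 0.392% of all sites. Matrix proteases had 5 at 2 of 46 genes (4.35%), Adamts5 and Adam12, or 0.824% of 607 sites. Lama2, the laminin chain of muscle basement membranes, had 3 members, all isolated. In MEF WT, KI and SG they had −log10 p of 24.6, 10.9 and 13.6, of 16.7, 15.2 and 6.98, and of 27.2, 10.9 and 12.3, with other types' summits at least 56860 bp away. H3K27ac sites nearest Lama2 numbered 23, 11 and 15 in the MEF lists and 3 to 9 in the others. The same lists chose its members, so low counts in the others follow in part from the choice and are no result. Lama4, Nid2, Col5a2 and Thbs1 had 1 member each. Adamts5, an aggrecan-cleaving protease, had 4 members between 186845 and 518467 bp from its TSS, of which 1 was isolated, and 96 sites of the MEF WT list against 14 of KI and 38 of SG. Its strongest member had 96.0 in WT MEF, 35.6 in KI and 29.4 in SG. Pappa had 5 members, of which 1 was isolated. Its neighbourhood held 14, 23 and 12 sites of the MEF lists, 9 and 0 of the MMTV-CAF lists and 1 and 11 of the wound lists. As at Lama2, these lists chose the members, so the counts are a description only.

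TGF-beta and BMP signalling genes had 7 members at 4 of 54 genes (7.41%, beside 1.49% of all genes), which is 0.706% of 992 sites, beside 0.392% of all sites. The activin subunit genes Inhba and Inhbb had 3 and 2. At Inhba the promoter member had values of 69.9 in WT MEF, 14.4 in KI and 71.9 in SG with another summit at 560 bp, and the other pair lay 656367 and 731956 bp away. At Inhbb both members were isolated, 16985 and 17906 bp from the TSS, and the stronger had 22.7, 20.3 and 40.0. Tgfb3, a ligand, and Tgfbr3, a co-receptor, had 1 near member each. Wnt genes had 1 member, at the co-receptor Lrp6, among 49 genes (2.04%), or 0.181% of 553 sites. FGF, PDGF, IGF and hedgehog genes had 2 members among 48 genes (4.17%), at Vegfa and Gas1, or 0.257% of 779 sites. Both site shares were below the 0.392% of all sites.

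Contractile genes had 4 members at 2 of 25 genes (8.0%, beside 1.49% of all genes), which is 1.01% of their sites, beside 0.392% of all sites. Tpm1, a tropomyosin that lies along actin filaments, had 3, between 66458 and 129441 bp from its TSS, of which 2 were isolated. Cald1, the gene of caldesmon, had 1 near member with 20.7, 8.88 and 6.998. Axon guidance genes had 5 members at 5 of 50 genes (10.0%, against the same 1.49%), namely Sema3c, Epha4, Efna5, Ncam1 and Neo1, or 0.636% of 786 sites against 0.392%, and 3 were isolated. At Epha4, an ephrin receptor, the values were 25.2, 26.0 and 28.4 with another summit at 776 bp, and at Sema3c, a secreted semaphorin, 16.3, 10.9 and 28.6 with the nearest at 113969 bp. Inflammatory genes had 4 near members, at Cxcl12, Csf1, Ptges and Nfkb1, or 0.582% of 687 sites. Imprinted genes had 2, at Gnas and Ndn, or 1.15% of 174 sites. The Gnas member was isolated, with 26.7, 12.46 and 43.6, and lay in H3K4me3 of all 3 MEF lists and both wound lists but of no MMTV-CAF list. Adipocyte genes had 2, both at Ebf3, or 0.800% of 250 sites. These lists hold between 1 and 11 members each, and their shares have wide intervals.

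The surroundings of the genes with most members are described next. The genes were picked for sites without MMTV-CAF or wound H3K27ac, and the same lists are counted here, so low counts in those types follow in part from the choice and are no result. Kap, a kidney protein gene, was nearest to 5 members that lay between 223979 and 274019 bp from it, and 4 were isolated. Around it 16 sites of MEF WT, 18 of KI and 8 of SG faced 0 of both MMTV-CAF lists, 0 of wound WT and 3 of wound SG. Odz4, a teneurin gene, had 3 isolated members, and 11, 5 and 13 MEF sites faced 0, 0, 0 and 4 of the others. At Slc24a3, which encodes a cation exchanger, 20, 8 and 14 faced 0, 1, 2 and 1. At Gm7292 35, 16 and 19 faced 0, 8, 6 and 2, and its isolated member had 60.0, 25.3 and 44.3, the strongest of the isolated members by the same ranking. By contrast Tpm1 and Snx9, an endocytic adaptor gene, had 16 to 24 and 14 to 23 sites in every list. Aqp1, a water channel gene, had 3 isolated members but 8 sites in MMTV-CAF WT. Rnd3, Gm9934, Mocs2, Kcnip4, Ptn and Ptprk were also among the genes with most members.

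**Figure D5:**
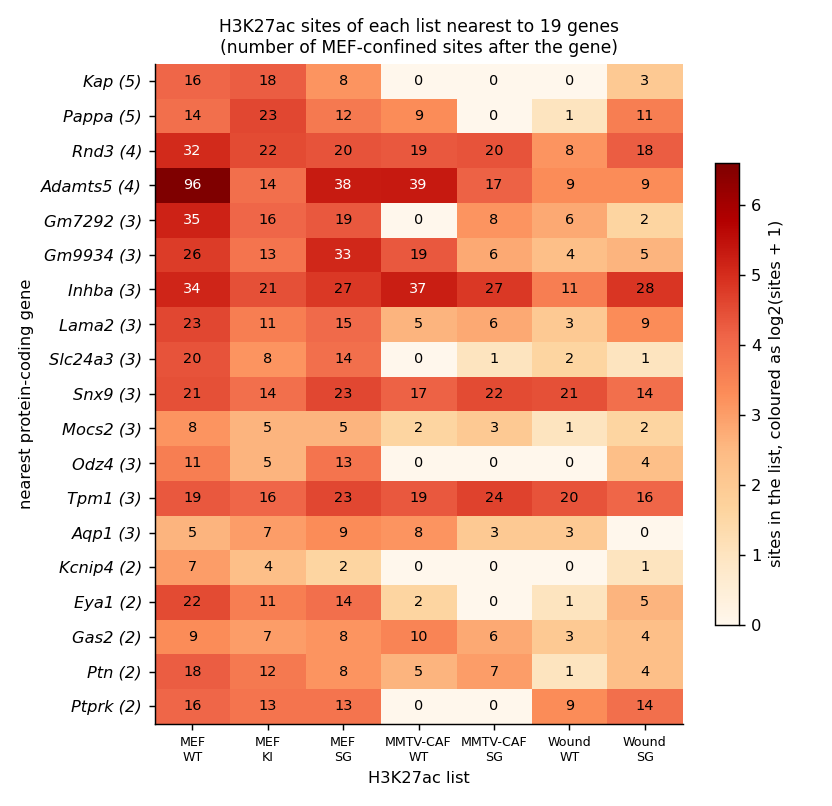
Number of H3K27ac sites in each of the 7 lists whose nearest protein-coding gene is one of 19 genes with most members (number of members in brackets), coloured by log2(sites + 1). Kap, Odz4, Slc24a3 and Kcnip4 have at most 4 sites in any MMTV-CAF or wound list, while Tpm1 and Snx9 have 14 or more in every list.

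Fibroblast marker genes had 0 members among 20 genes and 457 merged sites, too few for the overall share of 0.392% to give more than a handful, and the same holds for the other lists without a member. Their TSS carried H3K4me3 in 18 of 20 cases in MEF WT, 10 in KI, 17 in SG, 16 in each MMTV-CAF list, 14 in wound WT and 13 in wound SG. Epithelial markers carried it at 1 to 5 of 16 genes, endothelial at 1 to 3 of 12, immune at 0 to 1 of 11, pluripotency at 0 to 1 of 8 and neural crest and neural markers at 4 to 6 of 12. None of these marker lists had a member. KI, with the fewest fibroblast markers, was also the shortest H3K4me3 list.

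TAATTA was about as common in distal members as in all distal sites. Within 250 bp of the site's midpoint, on either strand, it was present in 35 of 347 distal members, or 10.1% (7.34 to 13.7), beside 9.76% of all distal merged sites. It was in 9.30% of isolated and 10.6% of near distal members, and in 14.9% of windows of the same length 2 kb from the 396 members. TGANTCA was in 19.02% (15.2 to 23.5) of distal members, beside 21.2% of all distal merged sites. The median GC content was 46.3% in distal members and 47.1% in all distal sites.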

How the data were processed

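ChIP-seq was made for 24 samples: 17 have a peak list, and 7 are inputs that were not analysed here. Reads had been trimmed (Trimmomatic), aligned (Bowtie, mm9) and freed of duplicates by the authors, and peaks were called by MACS2 against matched input. The submitters' notes also name deepTools. In the deposited H3K27ac and Prrx1 lists each entry is a summit of 1 bp, scored by its −log10 p. The deposited H3K4me3 regions carry a fold ratio over input, −log10 p, −log10 q and a score. These values rank peaks within a list, and read depth is unknown. The lowest −log10 p was 5.00 for H3K27ac but 3.00 for Prrx1, whose ChIP was made in duplicate; pooling is not stated.

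Sites were built as described, in Python 3.11.15 with pandas 2.3.3 and pysam 0.24.0 on NCBIM37, the same build as mm9, with GENCODE vM1. Promoters were sites at most 1 kb from a protein-coding TSS, and Prrx1 was matched at 500 bp from any summit of a site. Site building and intervals were tested on simulated lists. The sites, gene lists and motifs were chosen with earlier results of these data known. Genes named are the 20 with most members (ties by summed −log10 p in MEF WT) and members of the lists. Promoter genes with H3K4me3 in MEF alone, counted over all TSS of the gene, were also sought (0 found). Sites named are the 10 ranked highest by their lowest place in any MEF list and those with MEF Prrx1; other promoter, isolated, Prrx1 and H3K4me3 sites were named after their values were seen. Some genes that these rules select are not reported here. No test was possible with 1 library per group. Alternatives covered thresholds, list lengths, window widths, the lists required, and the Prrx1, promoter, H3K4me3 and motif definitions.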

Additional observations from a re-analysis of the deposited data

How the results depend on the processing

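With 1 library per group, leaving one out was possible only for whole lists of a class, and depth is unknown. No paired analysis was possible because every group has 1 library and no result comes from a test. Over 16 alternatives and 1 chosen after seeing the data, 52 of 104 values moved by more than their counting interval or, for counts, by over 1.5 times, and the cause was not tested. The share with a MEF Prrx1 summit moved only with lists cut to 29325 summits, to 1.08%. The difference between sites of MEF WT alone and members, 0.41 points with an interval that includes 0, was 2.07 points (0.508 to 3.09) in cut lists, which excludes 0, and 1.98 points (−0.164 to 3.32) with Prrx1 within 1 kb. It turned to −0.136 points (−1.82 to 0.679) with Prrx1 within 250 bp, the 1 change of sign.

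The number of sites was 632 with windows of 250 bp in all, 198 when widened by 500 bp on each side, 1992 without the MEF KI list, 835 without MEF SG, 1052 with absence required in the WT lists alone, 1432 without the MMTV-CAF lists, 1322 without the wound lists and 138 over 5 kb from other types. Nearest genes numbered 543, 167, 1379, 655, 841, 1062, 1048 and 114 in the same order. All 20 named genes kept a site under 9 alternatives, and 18 under the last. The promoter share was 22.8% and 5.05% with narrow and wide windows, 8.48% without KI, 17.5% without SG, 23.8% without wound, 17.7% within 2.5 kb and 6.52% over 5 kb from other types. The share with other-type Prrx1 was 9.97% and 4.04% with narrow and wide windows, 4.52% without KI, 10.9% without MMTV-CAF, 11.6% without wound, 3.54% and 10.1% with Prrx1 within 250 bp and 1 kb, and 1.45% over 5 kb away. H3K4me3 of MEF WT covered 32.1% and 12.6% with narrow and wide windows, 16.2% without KI, 35.02% without wound, 15.7% at a −log10 p of at least 10 and 12.3% over 5 kb away. H3K4me3 of another type covered 38.4% at an H3K27ac −log10 p of at least 10, 41.9% in cut lists, 50.5% and 11.1% with narrow and wide windows, 25.7% without KI, 38.2% without SG, 43.3% with the WT lists alone, 51.8% without MMTV-CAF, 54.99% without wound, 16.4% at an H3K4me3 −log10 p of at least 10 and 9.42% over 5 kb away. TAATTA within 100 bp was in 4.03%.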

Other observations

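Among 18 short motifs searched within 250 bp of the midpoint of distal sites, on both strands, GGAATG, the motif of TEAD factors that act with YAP, was present in 122 of 347 members, or 35.2% (30.3 to 40.3), beside 28.1% of all distal merged sites. It was in 41.9% (33.7 to 50.5) of isolated and 31.2% of near distal members, in 26.1% of distal sites confined to MMTV-CAF, in 27.4% of those confined to wound fibroblasts and in 22.0% of windows 2 kb from the 396 members. Distal sites of fewer MEF lists and no other type held it in 35.5% (30.5 to 40.8) for WT and KI, 31.006% for WT and SG and 30.3% for WT alone, and distal sites in all 7 lists in 31.014%, so it was not particular to the members. The motif was singled out after its values were seen, and a match is not a bound site.

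Members were unevenly spread over chromosomes. They made up 0.716% of merged sites on chromosome 6 (41 of 5726, interval 0.528 to 0.9699) and 0.723% on X (15 of 2075, 0.439 to 1.19). The share was 0.193% on 11 (13 of 6732, 0.113 to 0.330) and 0.187% on 19 (6 of 3212, 0.0856 to 0.407). Over all sites it was 0.392%, which the interval of 19 includes. Of the members, 47 shared an identical stretch of 31 bases with another member. The stretch shared by most, 14 members, was a CA repeat. On either strand it lay anywhere in 20 members (5.05%, interval 3.29 to 7.67) and in 3.36% of all merged sites.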
